A study of Mus musculus with 9 samples.

Results

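The BMP and TGF-beta pathway genes described here are 35 named ligand, receptor, antagonist and target genes of the 21883 protein-coding mouse genes, taken from a list by name and not by any measured value. The list was, however, chosen with earlier results of these data known. Bmp2, Bmp3, Bmp4, Bmp5, Bmp6, Bmp7, Gdf5, Gdf6, Gdf7, Gdf10, Gdf11, Inhba, Inhbb, Tgfb1, Tgfb2 and Tgfb3 are the 16 ligand genes. The 9 receptor genes are Bmpr1a, Bmpr1b, Bmpr2, Acvr1, Acvr2a, Acvr2b, Tgfbr1, Tgfbr2 and Tgfbr3. The 5 antagonists are Nog, Grem1, Chrd, Bambi and Fst, and the 5 targets are Id1, Id2, Id3, Smad6 and Smad7. Open chromatin was measured by ATAC-seq, a method in which Tn5 transposase inserts adapters into accessible DNA, in 3 cell lines grown from primary mouse osteosarcomas. Their genotypes were p53R172H/- (R172H below), p53R245W/- (R245W) and p53-/- (null), so none of the 3 carried a wild-type p53 allele and no wild-type or normal bone sample was compared. Each genotype was 1 cell line with 3 libraries, grown in the same serum-containing medium, so genotype and line cannot be told apart. Whether the replicates were separate cultures is not stated in the labels. A p-value below therefore sets the difference between lines against the spread between libraries of a line, which may be technical.

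Ligands of this family bind pairs of type I and type II serine/threonine kinase receptors, and the activated type I receptor phosphorylates receptor SMAD proteins. BMP ligands act mainly through Smad1, Smad5 and Smad9, and TGF-betas and activins through Smad2 and Smad3; Smad4 is shared. In bone, BMPs drive osteoblast differentiation, TGF-beta released from matrix takes part in remodelling, and secreted antagonists limit both.

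The lists held 72840 to 74352 peaks in R172H, 75314 to 79424 in R245W and 65199 to 65942 in null, so R245W lists were the longest and null lists the shortest. Only peaks were analysed here, so read depth is unknown and a gene with no peak in a list was not called there, which does not show closed chromatin; copy number and openness cannot be told apart either. Of 10 osteoblast marker genes, 8 had an end with a peak in all 9 libraries, beside 55.0% of all protein-coding genes. Runx2, Sp7, Alpl and Col1a1 were among them, while Bglap and Ibsp had none. Of 4 haematopoietic markers, Spi1 and Cd68 had an end peak in all 9 libraries, Csf1r in the 3 R245W libraries alone and Ptprc, the pan-leukocyte marker, in none. Of 4 endothelial markers, Kdr had one in all 9 and Pecam1, Cdh5 and Tek in none. Of 4 epithelial markers, Krt8 had one in all 9, Epcam in 3 R245W and 2 null libraries, and Cdh1 and Krt18 in none. Sox9, a chondrocyte marker, had one in all 9 and Acan, a cartilage matrix gene, in the 3 R172H libraries alone. Of 3 adipocyte markers, Pparg and Plin1 had one in all 9 and Adipoq in none. Of 3 neural markers, Tubb3 had one in all 9, Sox10 in 3 R172H, 3 R245W and 2 null libraries, and Elavl4 in none. Of 3 skeletal muscle markers, Myod1 had one in 2 R172H, 3 R245W and 3 null libraries, Des in 2 R172H libraries alone and Myog in none.

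For each gene, peaks were counted in a window of its span plus 50000 bp on either side, and an end was called open in each library that had any peak no more than 1000 bp from it. The strength of a peak is given as its percentile within its own list, the percentage of that list's peaks with a lower −log10 q. RefSeq promoter sequences (GRCm38.p6) were found for 23 of the 35 genes, with 26 starts. They were not found for Bmp2, Bmp3, Bmp7, Gdf5, Gdf6, Tgfb3, Tgfbr3, Nog, Bambi, Fst, Id1 and Smad7. The 250 bases before the start are shown for 6 genes that stand for the different patterns: a promoter open in all libraries (Id3), in R172H alone (Gdf10), in both mutant lines (Bmp6), an inner start open in R245W alone (Bmpr1b), and 2 ligand promoters with no peak in any library (Bmp4 and Bmp5). Capitals mark CpG dinucleotides, and each sequence reads 5′ to 3′ on the gene's strand.
Id3, chr4:136143572-136143821, plus strand: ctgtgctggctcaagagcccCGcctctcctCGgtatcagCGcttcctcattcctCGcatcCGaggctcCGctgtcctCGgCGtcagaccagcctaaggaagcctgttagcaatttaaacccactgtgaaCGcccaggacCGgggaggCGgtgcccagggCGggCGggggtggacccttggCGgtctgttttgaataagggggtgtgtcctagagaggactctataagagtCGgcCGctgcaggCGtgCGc
Gdf10, chr14:33923337-33923586, plus strand: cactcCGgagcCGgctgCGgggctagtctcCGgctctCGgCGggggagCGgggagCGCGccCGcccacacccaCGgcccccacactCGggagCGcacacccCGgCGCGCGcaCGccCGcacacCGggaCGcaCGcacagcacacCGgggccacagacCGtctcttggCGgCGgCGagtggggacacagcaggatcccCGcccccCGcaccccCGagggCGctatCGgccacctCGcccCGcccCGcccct
Bmp6, chr13:38345466-38345715, plus strand: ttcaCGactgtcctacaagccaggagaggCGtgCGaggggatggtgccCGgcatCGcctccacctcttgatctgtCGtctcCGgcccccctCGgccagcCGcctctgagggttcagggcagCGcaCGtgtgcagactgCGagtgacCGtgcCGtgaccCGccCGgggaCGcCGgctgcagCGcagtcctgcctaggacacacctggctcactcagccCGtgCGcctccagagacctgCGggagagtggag
Bmpr1b, chr3:141931589-141931838, minus strand: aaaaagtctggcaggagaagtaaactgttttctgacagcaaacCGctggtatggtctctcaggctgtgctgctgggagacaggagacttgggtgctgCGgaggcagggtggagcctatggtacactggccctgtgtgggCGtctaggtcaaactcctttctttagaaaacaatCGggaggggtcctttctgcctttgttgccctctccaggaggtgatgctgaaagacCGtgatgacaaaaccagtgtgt
Bmp4, chr14:46390670-46390919, minus strand: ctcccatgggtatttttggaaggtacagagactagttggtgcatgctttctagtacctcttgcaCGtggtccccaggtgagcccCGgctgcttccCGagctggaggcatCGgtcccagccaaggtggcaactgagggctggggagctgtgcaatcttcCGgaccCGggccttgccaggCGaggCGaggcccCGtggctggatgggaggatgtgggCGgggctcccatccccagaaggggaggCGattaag
Bmp5, chr9:75775115-75775364, plus strand: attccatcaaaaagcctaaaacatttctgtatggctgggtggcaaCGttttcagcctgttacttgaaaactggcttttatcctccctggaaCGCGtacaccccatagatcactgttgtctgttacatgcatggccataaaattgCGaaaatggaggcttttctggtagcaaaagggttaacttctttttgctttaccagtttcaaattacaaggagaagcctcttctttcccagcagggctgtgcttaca
The sequence before Gdf10 held 35 CpGs and was 78.8% G and C, whereas that before Bmp5 held 4 CpGs at 42.8%. Bmp6 had 22 CpGs, Id3 18, Bmp4 11 and the inner Bmpr1b start 5.

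Peaks overlapped 18 of the 26 promoters (250 bases before to 50 after the start) in all 9 libraries, which is 69.2% beside 51.5% of 21262 promoters of all genes; this promoter comparison was added after the peak counts had been seen. The median content of G and C was 70.0% in those 18, against 61.6% for all promoters open in 9 libraries. Another 4 promoters had no peak in any library, with a median of 49.8% beside 46.4% for all such promoters. They belonged to Bmp4, Bmp5, the Bmpr1b start at position 141982264 and the Tgfbr1 start at 47386216. The remaining 4 promoters, of 3 genes, differed between libraries: Gdf10 was open in R172H alone, Bmp6 in both mutant lines, and 2 overlapping Bmpr1b starts, which share a window and a peak, in R245W alone. The motif GGCGCC, which reads the same on both strands and has been described at BMP-responsive promoters, occurred in 6 of the 26 sequences (Bmpr1a, Bmpr2, Tgfbr1, Grem1, Chrd and Id2) and in 12.3% of all promoters. The palindrome GTCTAGAC, bound by SMAD proteins, occurred in 0 of the 26 and in 0.183% of all promoters. TGACTCA, the AP-1 motif, and TGTGGT, the RUNX motif, both searched on either strand, were also in 0 of 26, beside 4.06% and 12.4% of all promoters. No match overlapped a match to another motif, since 1 motif alone had any, and a match is a description of the sequence alone.

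Most of the pathway was open at a gene end in every line. An end was open in all 9 libraries for 25 of the 35 genes, beside 55.0% of all protein-coding genes, and in none for 3 (Bmp4, Bmp5 and Inhba), beside 31.3%. By role, 8 of 16 ligands, 8 of 9 receptors, 4 of 5 antagonists and 5 of 5 targets were open in all 9. Genes open at either end in 3 of 3 libraries of 1 line and 0 of 3 of another numbered 4 for R172H against null. These were Gdf10, Tgfb2, Bmpr1b and Chrd (background 3.19%). There was 1 for R245W against null (Bmpr1b, background 3.3%). For R172H against R245W there were 3 (Bmp7, Gdf10 and Tgfb2, background 1.61%). No end was open in null and not in R172H (1.27%) or not in R245W (0.544%), nor in R245W and not in R172H (2.57%). With 3 libraries against 3, the smallest p of a two-sided exact permutation test is 0.1, so these counts are descriptions. These ends are those of the gene span, and the RefSeq starts of Tgfb2, Chrd and Inhba were open in all 9 libraries. With end windows of 2000 bp, 2 genes were open at either end in R172H and not in null (3.42% of all genes).

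**Figure D1:**
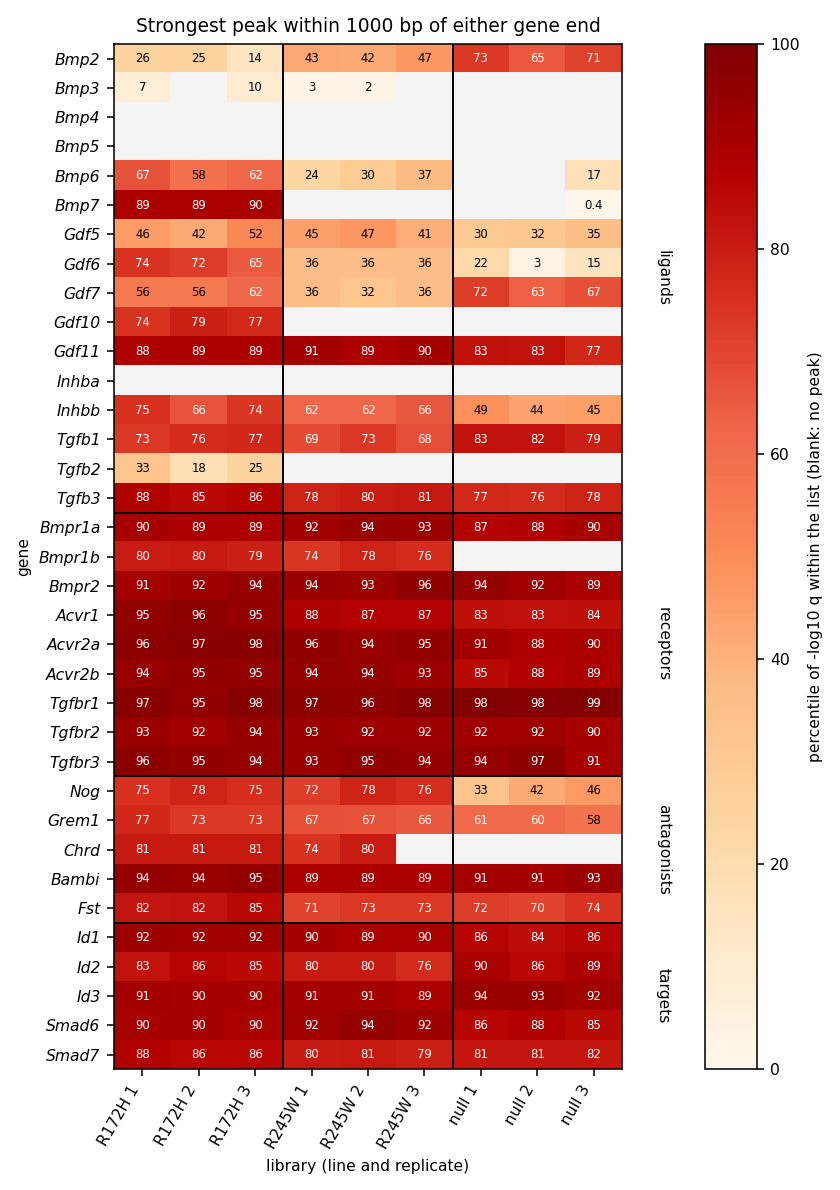
Strength of the strongest peak within 1000 bp of either end of each of the 35 genes (rows, by role) in each of the 9 libraries (columns), as a percentile within the list; empty cells have no peak. The rows of Gdf10 and Tgfb2 are filled in R172H alone, that of Bmp7 in R172H and weakly in null replicate 3, and the rows of Bmp4, Bmp5 and Inhba are empty.

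The question the 3 genotypes pose is whether open chromatin near these genes differs between 2 p53 missense mutants and loss of p53. Window counts were tested across the 3 lines with a one-sided exact permutation test of the spread between lines over all 280 partitions of the libraries, with Benjamini-Hochberg adjustment over the 18345 genes tested. All 35 members could be tested, and 2 ligands, Bmp2 and Bmp5, passed at an adjusted p of 0.0353. That is 2 of 35 beside a background of 10.1% of all genes. In this test a gene passed only at the smallest p that 280 partitions allow, 0.00357, and the next p reached, 0.00714, gave 0.0527 after adjustment. Bmp4, Gdf10, Tgfb2 and Id1 stood at that step.

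Bmp2, a strong inducer of bone formation, lies on chromosome 2 at 133552159 to 133562896. Its window held 4, 4 and 5 peaks in R172H, 3, 3 and 3 in R245W and 2, 2 and 2 in null (means 4.33 ± 0.577, 3 ± 0 and 2 ± 0, SD, n = 3; adjusted p = 0.0353 by the exact permutation test). The 3 lines did not overlap. With lists cut to an equal length of 65199 peaks the counts were 4, 3 and 4, then 3, 2 and 2, then 2, 2 and 2, and the adjusted p was 0.119 (exact permutation test). The call was also lost with windows of 20000 bp (0.0875) and 100000 bp (0.0605), and within the gene alone (0.121), where R245W had the highest mean. Of its 6 regions, 2 were R172H-only, meaning present in 3 of 3 R172H lists and absent from the rest; the stronger, at chr2:133570236-133571092, 7340 bp beyond the gene, stood at percentiles of 75.5, 78.1 and 77.5. The peak at the low-coordinate gene end ran the other way: its percentiles were 26.0, 25.0 and 14.5 in R172H, 42.7, 41.9 and 47.2 in R245W and 73.3, 64.9 and 70.9 in null. Thus Bmp2 had the most peaks in R172H and the strongest gene-end peak in null, and neither order had overlapping libraries.

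Bmp5, a BMP of the same subgroup as Bmp6 and Bmp7, spans 75775365 to 75900316 on chromosome 9. R172H libraries had 2, 1 and 2 peaks in its window, R245W libraries 10, 10 and 9, and null libraries 8, 8 and 5 (means 1.67 ± 0.577, 9.67 ± 0.577 and 7 ± 1.73, SD, n = 3; adjusted p = 0.0353 by the exact permutation test). R172H was the low line, and no library of one line reached another line's range. The called bases were 0.632, 0.809 and 0.829 kb in R172H, 4.97, 5.70 and 5.53 kb in R245W and 2.46, 2.80 and 1.96 kb in null. Neither end of the gene was open in any library; of the 12 regions in the window, 4 were called in every R245W and null library and no R172H library, and 2 in R245W alone. One R245W-only region, at chr9:75781507-75782374, lay 6142 bp inside the gene at percentiles of 45.2, 49.9 and 57.8. The call was lost when R172H replicate 2 (adjusted p = 0.0609), R245W replicate 1 (0.0608), R245W replicate 2 (0.0617) or null replicate 3 (0.0589) was left out of the exact permutation test, with fewer partitions left, at equal list lengths (0.0692), and with windows of 20000 bp (0.0502) or the gene alone (0.07).

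Gdf10, also called BMP3b and closely related to Bmp3, had a start that was open in R172H and in no other line. The region over its start, chr14:33923168-33924492, overlaps the Gdf10 sequence printed above. It was called in R172H at percentiles of 74.0, 78.7 and 76.9 and in none of the 6 other libraries. The Gdf10 window held 9, 7 and 7 peaks in R172H, 0, 0 and 1 in R245W and 2, 1 and 2 in null (adjusted p = 0.0527, exact permutation test). Called bases were 5.94, 5.33 and 5.01 kb in R172H, at most 0.334 kb in R245W and at most 0.766 kb in null. Of its 11 regions 5 were R172H-only and none was called in all 9. The window also covers Gdf2, the gene of BMP9, which lies beyond the end of Gdf10 and had 6, 5 and 6, then 0, 0 and 1, then 2, 1 and 2 peaks in its own window. At equal list lengths the Gdf10 counts were 8, 7 and 7 against 0, 0 and 0 and 2, 1 and 2. The 3 chondrocyte markers together had 22, 22 and 22 peaks in R172H, 21, 22 and 19 in R245W and 19, 16 and 17 in null; Sox9 ends were open in all 9, Acan ends in R172H alone and Col2a1 ends in all but 1 null library. Their part in the Gdf10 result was not tested.

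Bmp7 on chromosome 2, a bone-inducing BMP used clinically as osteogenic protein, followed the same order. Its counts were 9, 9 and 8 in R172H, 3, 3 and 3 in R245W and 4, 3 and 5 in null (adjusted p = 0.058, exact permutation test). Its end was open in R172H at percentiles of 89.0, 89.2 and 89.7, in no R245W library, and in null replicate 3 alone, at 0.449, close to the weakest peak of that list. Of 13 regions 3 were R172H-only, among them chr2:172862850-172863874, 4138 bp outside the gene, at 62.6 to 67.9.

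Tgfb2, 1 of the 3 TGF-beta isoforms, had 16, 15 and 16 peaks in R172H, 9, 9 and 10 in R245W and 10, 11 and 11 in null (adjusted p = 0.0527, exact permutation test). R172H libraries were all above the other 6, and 4 of the 22 regions were R172H-only. The Tgfb2 end that was open in R172H alone is the downstream one, with weak peaks at percentiles of 33.2, 17.7 and 25.1. The Tgfb2 promoter was open in all 9 libraries at 67.5 to 81.9, so the lines did not differ in whether it was called.

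Bmp4, which is needed for mesoderm formation and acts on osteoblast precursors, had 7, 6 and 7 peaks in R172H, 6, 5 and 5 in R245W and 3, 2 and 3 in null (adjusted p = 0.0527, exact permutation test). Both mutant lines lay above null. No Bmp4 end was open, but a region of 3237 bp inside the gene, at chr14:46385774-46389010, was called in all 9 libraries at 85.7 or higher. In 3 further regions both mutants were called and null was not. The strongest of these by its lowest percentile, at chr14:46436411-46437324, lay 45742 bp from the gene at 81.4 to 84.4 in R172H and 71.1 to 76.0 in R245W. Another, at chr14:46363591-46364810, was higher in R172H, at 84.6 to 87.9, and lower in R245W, at 27.6 to 33.3. The adjusted p for Bmp4 was 0.0339 at equal list lengths, 0.688 with 20000 bp windows, where R245W had the highest mean, and 1 within the gene alone, where null had (exact permutation test).

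**Figure D2:**
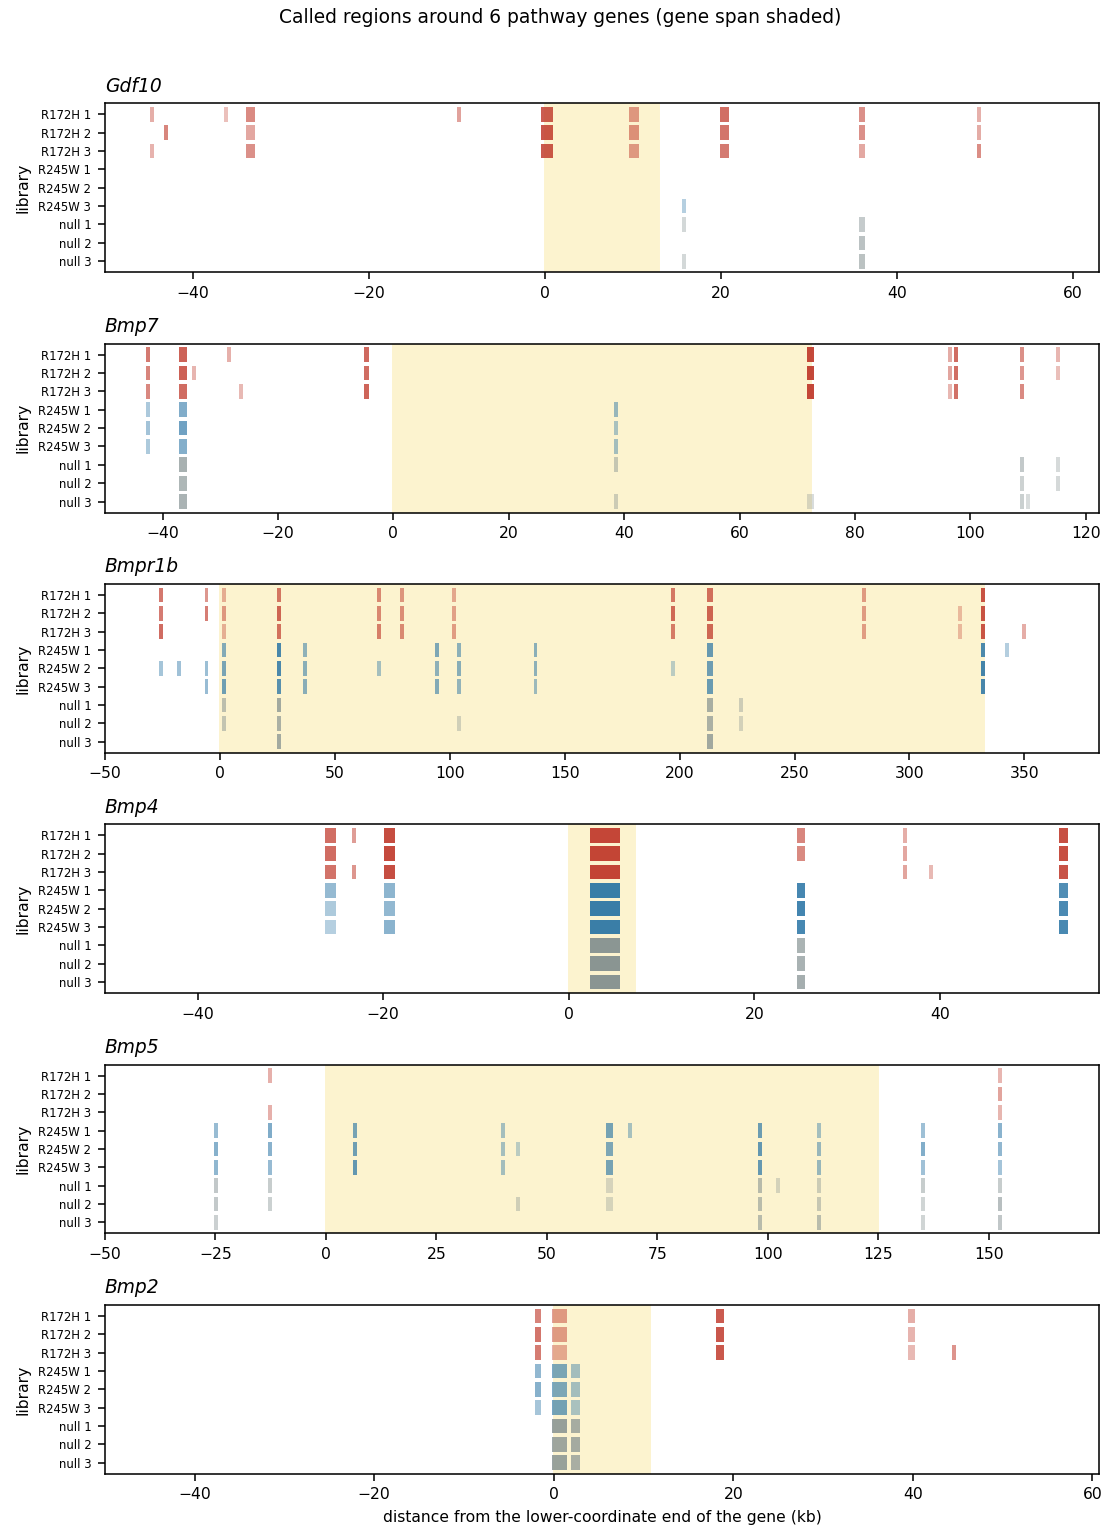
Called regions in the 9 libraries (rows) around 6 of the genes, by distance in kb from the lower-coordinate end of the gene, with the gene span shaded; darker bars are higher percentiles, and narrow regions are widened so that they can be seen. Gdf10 has bars almost solely in the R172H rows, and Bmp5 almost solely in the R245W and null rows.

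The other 10 ligands gave adjusted p-values of 0.058 to 0.74 in the exact permutation test. Bmp6 had 14, 14 and 15 peaks in R172H, 19, 18 and 17 in R245W and 14, 13 and 15 in null. The Bmp6 promoter was open at 66.7, 58.5 and 61.9 in R172H and 23.8, 29.6 and 37.4 in R245W; in null only replicate 3 had a peak near the start, at 17.4, and it missed the promoter. A region 24642 bp outside Bmp6, chr13:38319638-38321074, was called in every R245W and null library at 83.1 or higher and in no R172H library. Bmp6 thus had a start peak that was strongest in R172H and a strong flanking peak that R172H lacked.
Inhba, the activin A subunit gene, had 3, 2 and 3 peaks in R172H, 4, 4 and 3 in R245W and 5, 5 and 5 in null, with null above both mutants. Its RefSeq start, which lies inside the table's span, was open in all 9 libraries at 82.0 to 93.1, with highest values in R172H. Inhbb, the activin B subunit gene, had 8, 5 and 7, then 6, 6 and 6, then 4, 3 and 3, with null lowest. Gdf6, a joint and skull patterning ligand, had 4, 6 and 4, then 6, 4 and 4, then 2, 2 and 4, so the lines overlapped. Its end peak nevertheless stood at 74.2, 72.2 and 64.7 in R172H, 36.3, 36.5 and 36.5 in R245W and 21.5, 3.49 and 15.1 in null, without overlap.
Gdf11 had 9, 10 and 9, then 14, 13 and 13, then 9, 9 and 10 peaks, with R245W highest in a window that also holds 5 other genes. Bmp3, which opposes bone-inducing BMPs, had 4, 4 and 5, then 5, 5 and 4, then 3, 3 and 3. Tgfb3 had 9, 8 and 9, then 13, 13 and 10, then 8, 11 and 8; its R245W-only region at chr12:86091152-86092464, at percentiles of 75.1 to 83.2, lay nearer to Ift43 than to Tgfb3. Tgfb1, Gdf5 and Gdf7 had overlapping counts in every pair of lines, within 9 to 12, 6 to 8 and 7 to 9 peaks.

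Among the receptors, none of the 9 passed the test across lines, and the adjusted p-values ran from 0.058 to 0.74 (exact permutation test). Bmpr1b, a type I BMP receptor needed for cartilage condensation, was the receptor with line-dependent gene ends. It had 11, 12 and 12 peaks in R172H, 9, 13 and 9 in R245W and 4, 5 and 3 in null (adjusted p = 0.058, exact permutation test), with all mutant libraries above all null libraries. The region over the upper end of its span, chr3:142168459-142169861, was called at 79.8, 80.5 and 78.8 in R172H and 73.7, 78.5 and 76.2 in R245W, and in no null library. The inner start printed above lay in a second region, called in R245W alone at 40.2, 30.2 and 36.8. Bmpr1b therefore had an outer end shared by the mutants and an inner start found in R245W alone. At equal list lengths its counts were 11, 11 and 10, then 8, 10 and 9, then 4, 5 and 3.

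Bmpr1a, the widely expressed type I BMP receptor, had 15, 15 and 14 peaks in R172H, 16, 15 and 18 in R245W and 13, 10 and 12 in null, with null below both. At equal list lengths the lines overlapped, with 10, 9 and 12, then 11, 11 and 10, then 13, 10 and 11. Acvr2a, a type II receptor for activins and BMPs, had 8, 7 and 5 in R172H and 3 in each of the 6 other libraries; its start was open in all 9 at 88.3 to 97.5. Acvr2b, its paralog, had 11, 11 and 10, then 11, 13 and 13, then 10, 9 and 10. Tgfbr1, the TGF-beta type I receptor, had 7, 7 and 7 in R172H, 10, 12 and 11 in R245W and 7, 8 and 8 in null, and Tgfbr2, its type II partner, had 7, 7 and 6, then 9, 9 and 8, then 9, 9 and 9. In the full lists R245W was thus above R172H at both TGF-beta receptor kinases, beside a background of 27.4% of all genes. At equal list lengths R172H and R245W overlapped at both. Tgfbr1 then had 6, 7 and 6 in R172H and 5, 8 and 9 in R245W, and Tgfbr2 had 7, 7 and 6 and 7, 8 and 7. The lower-coordinate end of Tgfbr2, taken alone, was open in every R245W and null library and in no R172H library. Tgfbr2 also had a strong R172H-only region 3307 bp inside the gene, chr9:116091002-116092397, at 73.4 to 77.1.
Tgfbr3, betaglycan, which presents TGF-beta2 to the signalling receptors, had 26, 25 and 24, then 21, 22 and 22, then 26, 26 and 24 peaks, with R245W lowest. Bmpr2 and Acvr1 overlapped in every pair, with 9 to 11 and 12 to 17 peaks.

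**Figure D3:**
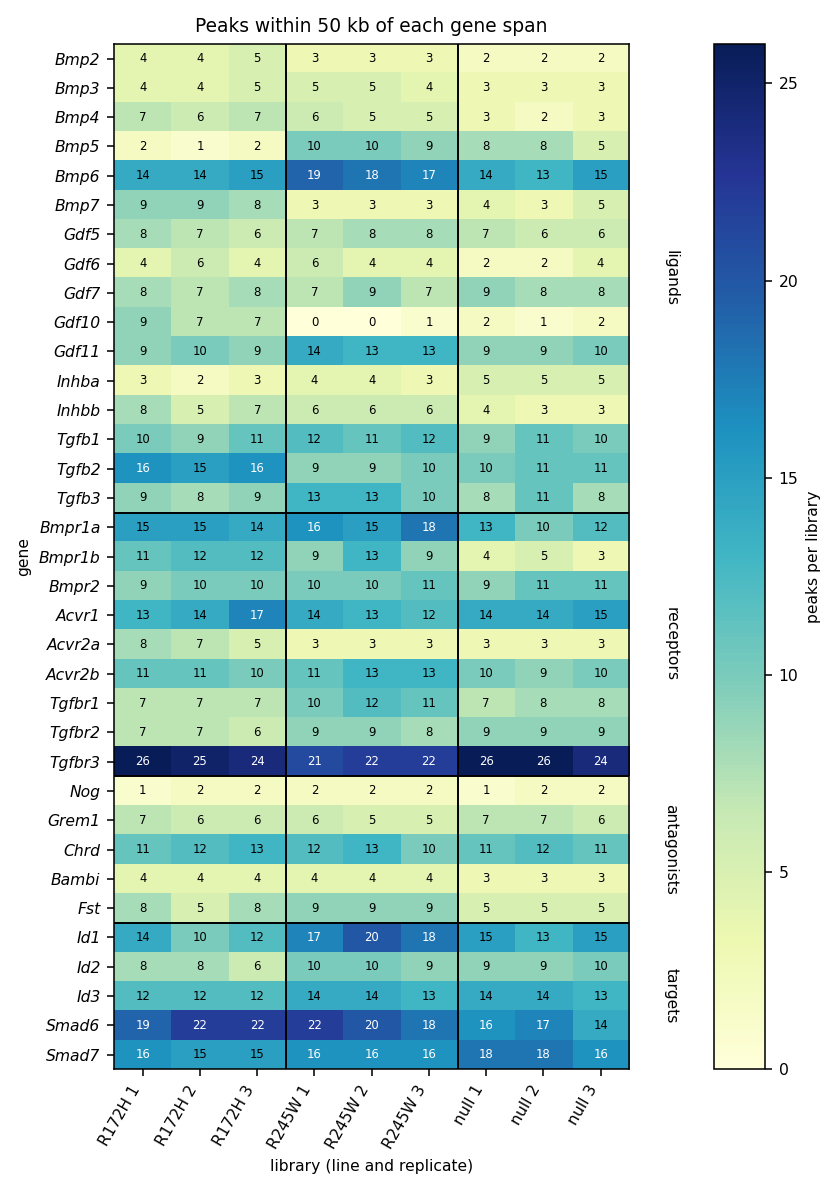
Heat map of the number of peaks in the window of each of the 35 genes (rows, by role) in each of the 9 libraries (columns), with the count printed in each cell. Bmp2 has 4 to 5 peaks in R172H and 2 in null, and Bmp5 has 1 to 2 peaks in R172H beside 9 to 10 in R245W.

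None of the 5 antagonists passed the test across lines, and their adjusted p-values ran from 0.058 to 1 (exact permutation test). Chrd, chordin, which sequesters BMPs, had 11, 12 and 13 peaks in R172H, 12, 13 and 10 in R245W and 11, 12 and 11 in null. A Chrd gene end was open in 3 R172H, 2 R245W and 0 null libraries when the table's span was used, at 80.6, 81.2 and 81.0 in R172H at the lower end, but the RefSeq start was open in all 9 at 61.9 to 81.2. The span and the RefSeq start thus give different pictures for Chrd. Nog, noggin, whose loss fuses joints, had 1 or 2 peaks in every library; its end was open in all 9, at 74.8 to 78.1 in R172H, 71.7 to 77.8 in R245W and 33.4 to 46.5 in null for the upper end. Both mutants had the stronger Nog peak.
Fst, follistatin, which binds activins, had 8, 5 and 8 peaks in R172H, 9, 9 and 9 in R245W and 5, 5 and 5 in null (adjusted p = 0.058, exact permutation test). The strongest R172H-only region near any of the 35 genes by its lowest percentile lay 48084 bp from Fst, at chr13:114507073-114507969, with 82.9, 85.2 and 82.2. Grem1, gremlin, had 7, 6 and 6, then 6, 5 and 5, then 7, 7 and 6. A region 6049 bp outside Grem1, chr2:113764697-113766168, was called in R245W at 73.0 to 74.1 and in null at 77.7 to 81.7 and not in R172H. Bambi, a pseudoreceptor that blocks type I receptors, had 4 peaks in each mutant library and 3 in each null library; the difference was 1 region, 31037 bp from the gene, at 46.8 to 54.9.

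All 5 targets were open at an end in every library. Id1, a direct BMP target that inhibits bHLH factors, had 14, 10 and 12 peaks in R172H, 17, 20 and 18 in R245W and 15, 13 and 15 in null (adjusted p = 0.0527, exact permutation test). R245W was above both other lines, in a window that also holds 4 other genes. R245W and null overlapped at equal list lengths, where Id1 had 12, 10 and 10, then 15, 15 and 14, then 15, 13 and 15. Its end peak stood at 91.8 to 92.4 in R172H, 89.3 to 89.9 in R245W and 83.8 to 86.2 in null, the reverse order for R172H and R245W. Id2 had 8, 8 and 6, then 10, 10 and 9, then 9, 9 and 10, and Id3 had 12, 12 and 12, then 14, 14 and 13, then 14, 14 and 13. R172H was lowest at both in the full lists. At equal list lengths Id2 had 7, 7 and 6, then 9, 9 and 9, then 9, 9 and 10, with R172H still lowest. Id3 then had 12 peaks in each mutant library and 14, 13 and 13 in null. The Id3 promoter printed above was open at 89.4 to 93.6 in all 9 libraries.
Smad6, an inhibitory SMAD induced by BMPs, had 19, 22 and 22, then 22, 20 and 18, then 16, 17 and 14 peaks, with null lowest. Smad6 counts at equal list lengths overlapped, at 16, 18 and 17, then 19, 19 and 17, then 16, 17 and 14. One of its 3 regions called in both mutants and not in null, chr9:64018049-64019206, lay 2879 bp inside the gene at 79.9 to 82.9 in R172H and 57.6 to 60.5 in R245W. Smad7, the inhibitory SMAD induced by TGF-beta, had 16, 15 and 15, then 16, 16 and 16, then 18, 18 and 16. A flanking region, 13067 bp from Smad7, was called in R245W at 82.2 to 83.1 and in null at 88.9 to 93.9 and in no R172H library. Bambi and Smad7 lie on chromosome 18, where R245W lists held 1947 to 2056 peaks, R172H lists 2313 to 2382 and null lists 2248 to 2305; the part of this in their counts was not tested.

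By pairs of lines, more of the 35 genes had non-overlapping counts with the mutant line higher than with null higher. R172H was above null at 12 genes (background 28.5%) and below it at 5 (16.6%): Bmp5, Inhba, Tgfbr2, Id2 and Id3. R245W was above null at 15 (33.3%) and below it at 2 (7.51%), Inhba and Tgfbr3. In the full lists, the counts of Bmp2, Bmp3, Bmp4, Inhbb, Bmpr1a, Bmpr1b, Bambi and Smad6 stood above null in either comparison. R172H was above R245W at 6 (15.5%), namely Bmp2, Bmp7, Gdf10, Tgfb2, Acvr2a and Tgfbr3, and below it at 10 (27.4%), among them Tgfbr1, Tgfbr2, Id1, Id2 and Id3. Both comparisons use the same null libraries. The shares lie near the background, so they describe these genes and do not set them apart. The null lists were the shortest, and at equal list lengths R245W was above null at 6 and below it at 12 (backgrounds 17.5% and 21.0%), the opposite balance. R172H was then above null at 8 (19.9%) and below it at 9 (26.9%), so neither mutant line had more genes above null than below it at equal list lengths.

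**Figure D4:**
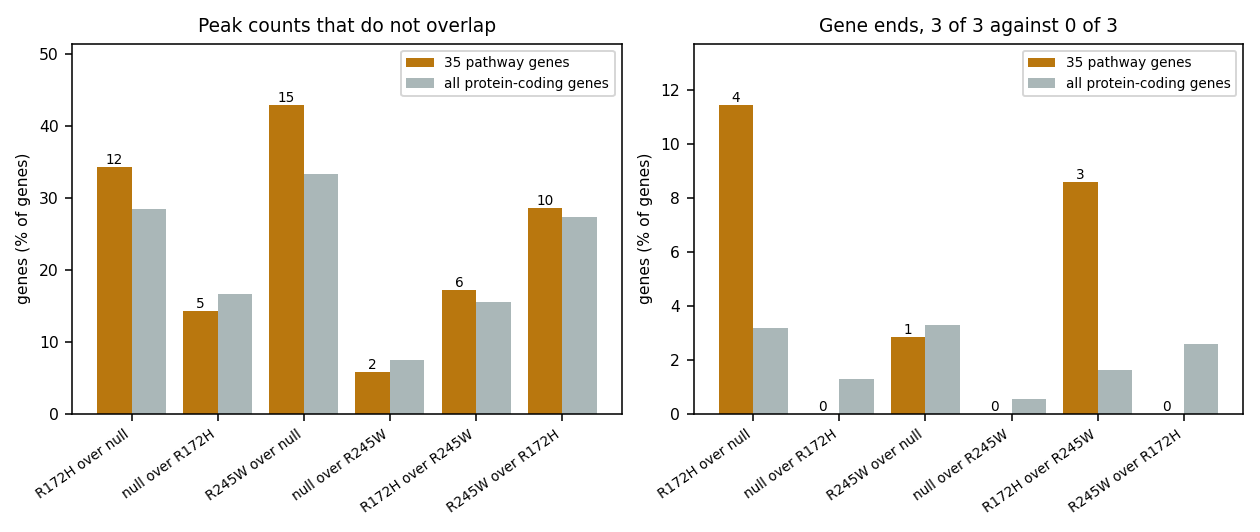
Percentage of genes whose 3 libraries of one line all exceed the 3 of another in peak count (left) and whose end is open in 3 of 3 against 0 of 3 (right), for the 35 pathway genes and for all protein-coding genes; numbers above bars are counts of pathway genes. On the left both sets have similar bars. On the right R172H against null has 4 pathway genes, among them Tgfb2 and Chrd, whose RefSeq starts were open in all 9 libraries.

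The 35 windows, which do not overlap each other, held 524 of the 124230 regions made by merging the 9 lists. Of these, 166 (31.7%) were called in all 9 libraries, beside 31.7% of the 104537 regions in any gene window. R172H-only regions numbered 44 (8.4% beside 8.73%), R245W-only 25 (4.77% beside 5.19%) and null-only 12 (2.29% beside 2.59%). Regions of both mutants and not null numbered 21 (4.01% beside 2.81%), of R245W and null and not R172H 34 (6.49% beside 6.04%), and of R172H and null and not R245W 6 (1.15% beside 0.827%). The other 216 (41.2% beside 42.1%) were called in part of a line's libraries.
By gene, Gdf10 had no region called in all 9 libraries, whereas Chrd, Id3 and Smad7 had 10 each. Ligand windows held 200 of the 524 regions, with 21 of the 44 R172H-only regions and 10 of the 21 regions of both mutants. Receptor windows held 184 regions, with 16 of the R172H-only regions and 13 of the 25 that were R245W-only. These counts were not tested between roles. Regions called everywhere were at a gene end in 16.9% of cases, against 6.82% of the R172H-only ones and 0% of the R245W-only and null-only ones. A region joins the overlapping peaks of all lists that call it, so regions called everywhere span more lists by definition and no test was made of this difference.

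**Figure D5:**
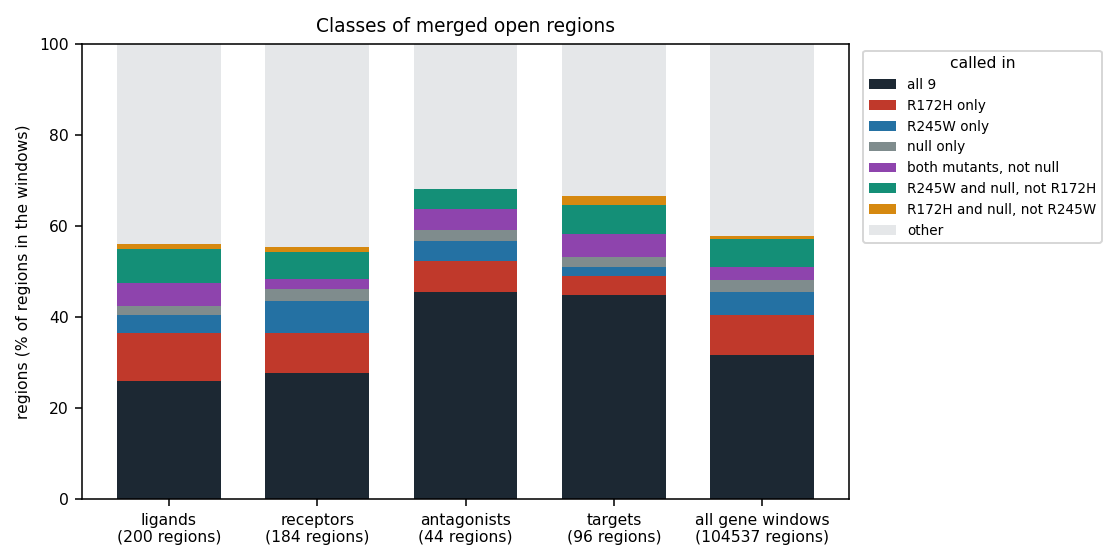
Percentage of merged regions in each class, stacked, for the windows of the ligand, receptor, antagonist and target genes and for all gene windows (104537); colours give the libraries in which a region was called. Regions called in all 9 libraries number 52 for ligands, 51 for receptors, 20 for antagonists and 43 for targets.

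A wider list of 61 further pathway genes, none of them a member, was counted in the same way. Of 59 tested, 8 passed the exact permutation test across lines, beside 10.1% of all genes and 2 of the 35 members; the shares were not tested against each other. R245W had the highest mean at 5 (Hjv, Gdf3, Ltbp2, Ltbp1 and Chrdl1), R172H at 1 (Bmp10) and null at 2 (Dcn and Smad2). Chrdl1, a chordin-like BMP antagonist, had 2, 2 and 2 peaks in R172H, 8, 7 and 7 in R245W and 4, 4 and 4 in null, and its end was open in R245W alone. Ltbp1, which tethers latent TGF-beta to the matrix, had 23, 23 and 22, then 34, 38 and 33, then 27, 30 and 25. Smad2, the TGF-beta and activin SMAD, had 4, 3 and 3, then 1, 2 and 1, then 5, 5 and 6, and also lies on chromosome 18, so the lower R245W total there applies to it as well.
Ends open in R245W and not in null were those of Eng, Ltbp4, Chrdl2 and Chrdl1, 4 of the 61 beside 3.3% of all genes. In R172H and not in null they were those of Chrdl2 and Amhr2, 2 of the 61 beside 3.19%. None of the 61 was open in null and not in R172H (1.27%) or not in R245W (0.544%). An end was open in all 9 libraries for 40 of the 61, beside 55.0% of all genes.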

How the data were processed

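ATAC-seq narrowPeak lists of 9 libraries, 1 list per library and 3 per line, were used as deposited. Per the submitters' processing notes, bcl2fastq 2.17, Trimmomatic 0.33, Bowtie 1.1.2, MACS2 2.1.0, deepTools and build GRCm38 were used. How Tn5 offsets, duplicates and mitochondrial reads were handled is not given in the sources used here, nor are the MACS2 settings. Each deposited list gives an integer score, a fold ratio of signal and −log10 p and q per peak, the authors' own values per list. The lowest deposited −log10 q was 1.3. Only positions and −log10 q, as a rank within its list, were used, so fragment size and depth do not enter, and libraries sequenced more deeply may have longer lists.

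Gene spans and promoters came from RefSeq tables (GRCm38.p6), which give no exons, so positions are stated relative to the span only. Peaks were counted per window. Genes with a mean of at least 1 peak were tested by an exact permutation test over 280 partitions with Benjamini-Hochberg adjustment at 0.05 (Python 3.11.15, numpy 2.4.6, pandas 2.3.3), checked on simulated data. limma 3.58.1 in R 4.3.3 was an alternative. Peaks of the 9 lists were merged where they overlapped by 1 bp or more. All 35 members were named; full values went to those past the threshold or with line-specific ends, then to the other members by role. The members and lists were chosen with earlier results of these data known. Alternatives covered list length, −log10 q of 5 or more, window sizes, covered bases, scalings, limma and each library left out. Between replicates of a line 0.192 to 0.267% of peaks were identical, so no library was a copy of another.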

Additional observations from a re-analysis of the deposited data

How the results depend on the processing

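The count of called members (2) was 5 at −log10 q of 5 or more, 4 at equal list lengths, 14 with 100000 bp windows, 30 with covered bases, 4 with merged regions, 18 per 1000 peaks of the list, 16 per 1000 on the chromosome and 24 with limma at a pseudocount of 1 or 0.5. The count over all genes (1858, 10.1% of those tested) was 6036 with 100000 bp windows (31.6%) and 14051 with covered bases (76.6%). It was 8210 and 7920 with the 2 scalings (44.8% and 43.2%), and 11173 and 11126 with limma (60.9% and 60.6%). Cutting the lists to the same length gave 1919 genes (10.5%), merged regions gave 2030 (11.1%), and the stricter q gave 1989 (10.9%). With windows of 0 or 20000 bp the exact permutation test called 0 members and 0 genes; 10 and 17 members had an unadjusted p under 0.05, as did 4526 and 7490 genes. Without any window Bmp2 had its highest mean in R245W (adjusted p = 0.121); it also lost its call with 20000 bp (0.0875) and 100000 bp (0.0605). Bmp5 lost its call with 0 bp (0.07) and 20000 bp (0.0502). Leaving out 1 library gave 1 to 3 members, 1 without R245W replicate 1 or null replicate 3, and 1679 to 1846 genes.

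Equal replicate numbers did not pair the libraries: same-number correlations of deviations ran from -0.003 to 0.023, and not every library correlated best with its own number. With the replicate block the exact test, whose smallest p is then 0.0278, called 0 members and 0 genes, with 6 members and 2761 genes at an unadjusted p under 0.05; limma with the block, added after seeing the data, called 23 members and 10223 genes.

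R172H was above null at 3 members with 0 bp windows (12 in the report), beside 16% of all tested genes. Null was above R172H at 9 with equal lists (26.9% of all tested genes), covered bases (26.8%) and chromosome scaling (35.9%), and at 12 per 1000 peaks (36.9%). R245W was above null at 6 with equal lists (17.5%), 4 with 0 bp (16.3%), 9 with 20000 bp (25.4%) and 9 per 1000 peaks (21.4%). Null was above R245W at 5 with the stricter q (8.1%), 12 with equal lists (21.0%), 4 with 0 bp (5.67%) and 5 with 100000 bp (7.37%). It was also above R245W at 6 with covered bases (10.7%), and at 14 and 11 with the scalings (32.6% and 30.9%). R245W was above R172H at 6 with equal lists (25.0%), 3 with 0 bp (15.9%), 16 with 100000 bp (32.6%) and 18 with covered bases (49.0%). Leaving out 1 library gave 12 to 13, 5 to 7, 15 to 17, 2 to 4, 6 to 8 and 10 to 12 members in the order R172H above null, null above R172H, R245W above null, null above R245W, R172H above R245W and R245W above R172H. In that order the shares of all tested genes began with 28.5 to 31.8%, 16.6 to 19.7% and 33.3 to 39.1%. The later ones were 7.5 to 10.0%, 15.5 to 18.7% and 27.4 to 32.0%.

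With gene-end windows of 2000 bp, R172H and not null had 2 genes (3.42% of all genes) and R245W and not null 0 (3.3%). R245W and not R172H had 1 (2.59%). Calling an end at 2 of 3 libraries gave 3 for R245W and not null (4.1%). Leaving out 1 library gave 4 to 6 and 1 to 3 for the 2 mutants against null. The shares of all genes were then 3.19 to 3.61% and 3.3 to 3.66%.

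Region classes in windows of 0 and 20000 bp held 61 and 104 (all 9), 17 and 28 (R172H only), 10 and 16 (R245W only), 3 and 10 (both mutants), 10 and 20 (R245W and null) and 3 and 3 (R172H and null), and null only held 7 with 0 bp. Calling at 2 of 3 gave 79 R172H-only, 42 R245W-only, 25 null-only, 38 both-mutant, 54 R245W-and-null and 11 R172H-and-null regions; equal lists gave 16 R245W-only and 20 null-only. Leaving out 1 library gave 44 to 52, 25 to 30, 12 to 15, 21 to 25, 34 to 38 and 6 to 7 in these classes. Of 160 counts that left out no library 92 were within 1.5 times the reported value, as were 181 of 189 that left one out. The causes of these differences were not tested.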
